A study of Mus musculus with 2 samples.

Results

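The genes described here are 39 mouse genes of DNA replication. Their products copy DNA in S phase or act beside it in nucleotide supply, base repair, fork protection, control or chromatin. They were named in a list, with earlier results of these data known, and all 39 were among the 32285 genes measured in both libraries. They were followed in melanocytes sorted from back skin. The mice carried Dct-rtTA with tetO-H2B-GFP. In them the promoter of Dct, a melanocyte lineage gene, drives the factor that switches on a histone-bound GFP, and GFP+ cells were sorted. One library held activated melanocyte stem cells (McSCs) at early anagen, from anagen II hair follicles 4 days after depilation of mice aged 8 weeks. The other held mature melanocytes from the bulbs of anagen VI follicles of mice aged 5 weeks. Each library combined the cells of 4 mice, so there was 1 sample for each state. No test between the states was possible, and the intervals given below (95%, exact Poisson or exact binomial) cover counting error only. Mice of both groups ate doxycycline chow for 4 days. Early-anagen cells were freed from epidermis with trypsin, and bulb cells from dissected bulbs with collagenase and dispase. The early-anagen library was made with a version 3 droplet kit and the bulb library with version 2. Kit, depth, cell isolation, depilation, age and hair cycle stage therefore cannot be told apart from the state of the cells.

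DNA replication starts where the origin recognition complex, with Cdc6 and Cdt1, loads the ring of Mcm2 to Mcm7 onto DNA. Cdc45 and the GINS proteins join the ring to make the active helicase, polymerases copy each strand behind it, and a sliding clamp keeps the polymerases in place. Many of these genes are transcribed by E2F factors as a cell enters S phase. In the hair follicle, McSCs are quiescent in the resting phase and divide when a new hair starts to grow, and their progeny in the bulb make pigment.

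Cells entered the analysis with at least 1 Dct UMI (a unique molecular identifier, which marks 1 captured transcript), fewer than 3 UMIs of the keratins Krt10 and Krt14 together, under 5% mitochondrial UMIs, and more than 10000 UMIs at early anagen or 5000 in the bulb. This left 2785 of 11010 barcodes at early anagen, with a median of 24528 UMIs, and 3734 of 4327 in the bulb, with a median of 14286.5. The libraries shared 1 barcode sequence, and none among these cells. Dct, Tyrp1, Pmel and Mlana each had a UMI in at least 97.7% of the cells of either library, after each cell was reduced to 5000 UMIs. For Dct this follows from the choice of cells. The lineage factors Mitf and Sox10 had a UMI in 74.2% and 44.1% of early-anagen cells and 74.5% and 51.3% of bulb cells. Tyr had one in 85.4% of early-anagen and 99.4% of bulb cells, and Kit in 86.6% and 40.8%. No doublet caller was run, and values without the cells of most UMIs are given at the end.

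Bulb melanocytes held less RNA of the replication machinery than early-anagen McSCs, and the difference reached nearly every gene. The 39 genes summed to 169157 UMIs at early anagen, or 2234 CPM (UMIs scaled to the same total in each group, 2223 to 2245), and to 37123 UMIs in the bulb, or 664 CPM (658 to 671). The bulb level was 3.36-fold lower (log2 ratio −1.75, −1.77 to −1.73). A cell held 60.7 UMIs of these genes on average at early anagen and 9.94 in the bulb, counts that also carry the greater depth of the early-anagen cells. With each cell thinned to 5000 UMIs the log2 ratio was −1.54.

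Of the 39 genes, 35 had a mean of at least 5 CPM over both libraries, and 32 of these 35 were at least 2-fold lower in the bulb. Among all 8833 genes above that minimum the share was 27.9%. In total 34 of the 35 were lower by any amount, where 55.7% of all genes were. The median log2 ratio was −2.10 for the 35 genes and −0.19 for all genes. Gins1, Cdc45, Pola1, Pold1, Pole, Timeless, Clspn and Hells were under 5 CPM in the bulb and passed the minimum through early anagen alone. Their levels there were so low that the minimum itself fixed their 2-fold difference. Over all 39 members, 35 were at least 2-fold lower and the median was −2.20, where 35.6% of all genes with a UMI in both libraries were at least 2-fold lower. The genes under the minimum were Mcm10, Orc1, Gins3 and Cdc6, and all 4 were lower in the bulb. Rpa1 was the exception, higher in the bulb, and it was the only member to be so when the libraries were scaled by edgeR TMM factors, which moved the median gene to 0.12, or by a total without mitochondrial, ribosomal protein and pigmentation genes, which moved it to −0.35. Rfc2 and Fen1 were lower by less than 2-fold.

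**Figure D1:**
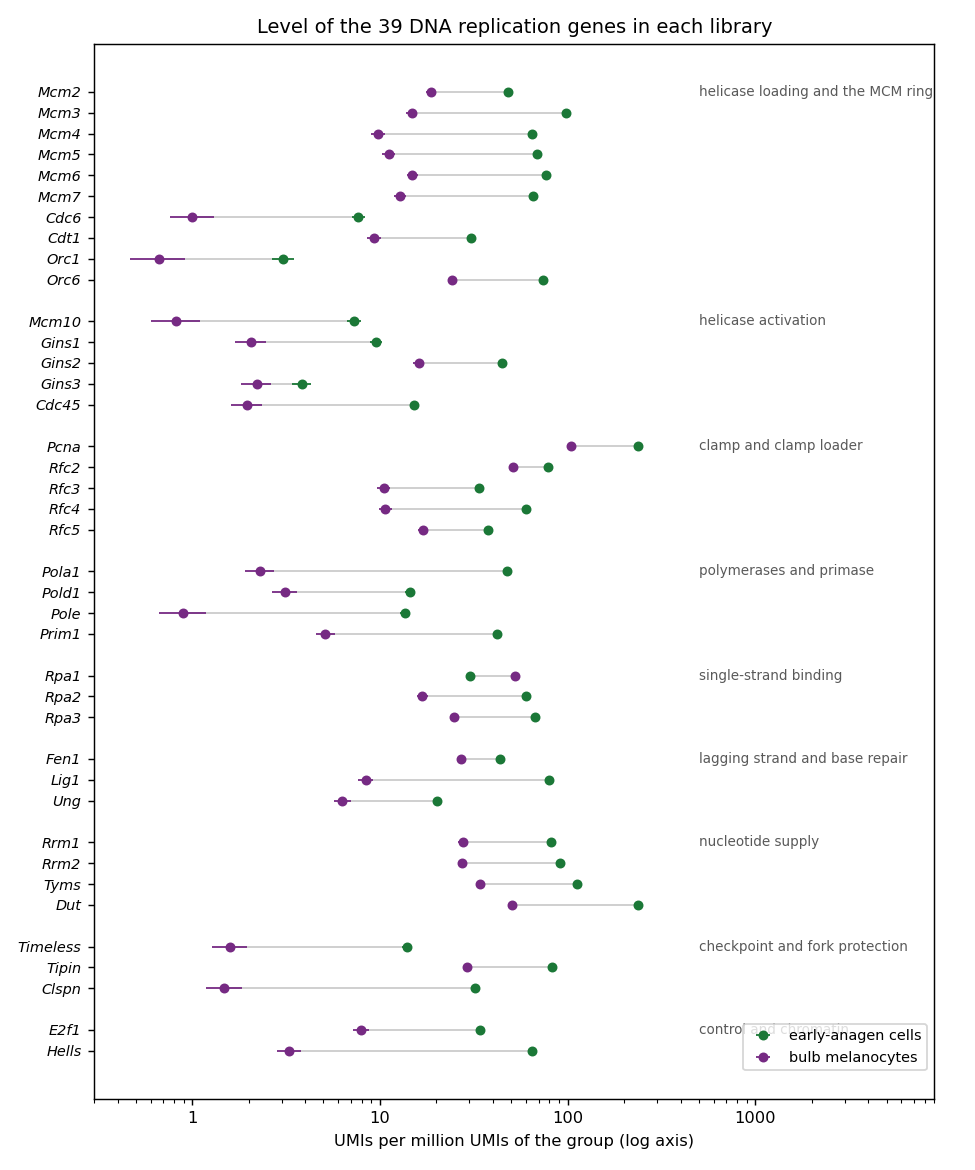
Level of each of the 39 genes in CPM (log axis) in 2785 early-anagen McSCs and 3734 bulb melanocytes, grouped by role. Points are sums over the cells of 1 library and bars are exact 95% Poisson intervals for counting error. The bulb point lies left of the early-anagen point for every gene but Rpa1.

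Among the genes that load the helicase, the 6 subunits of the Mcm ring differed by unequal amounts. Mcm3 was at 98.3 CPM at early anagen and 14.8 in the bulb (log2 ratio −2.73), whereas Mcm2 was at 48.4 and 18.6 (−1.38). The other 4 subunits lay between them, Mcm4 at −2.73, Mcm5 at −2.61, Mcm6 at −2.37 and Mcm7 at −2.34. All 6 intervals lay below −1. Cdc6, one of the loading factors, was at 7.69 and 1.0 CPM (−2.94, −3.36 to −2.54), and Cdt1, the other, at 30.5 and 9.34 (−1.71). Of the origin recognition subunits, Orc6 was at 74.3 and 24.2 CPM (−1.62), and Orc1 rested on 231 and 37 UMIs (−2.20, −2.75 to −1.70).

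Helicase activation followed the same direction with a wider spread. Cdc45 was at 15.3 CPM at early anagen and 1.95 in the bulb (−2.97), and Mcm10, which acts in firing of the origin, at 7.28 and 0.823 (−3.14, −3.61 to −2.71). The GINS subunits were not alike. Gins1 had a log2 ratio of −2.22, Gins2 of −1.47 and Gins3 of −0.80 (−1.12 to −0.50), the last from 291 and 123 UMIs.

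The replicative polymerases and primase were the role with the largest difference. Together they were at 118 CPM at early anagen and 11.4 in the bulb, 10.3-fold lower (log2 ratio −3.37, −3.49 to −3.25). Pola1, the catalytic subunit of polymerase alpha, which starts each new strand, was at 47.7 and 2.29 CPM (−4.38). Pole, the catalytic subunit of the leading-strand polymerase, was at 13.6 and 0.895 (−3.92). Prim1, the primase that makes the RNA primer, was at 42.2 and 5.12 (−3.04), and Pold1, of the lagging-strand polymerase, at 14.4 and 3.11 (−2.21).

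The clamp and its loader kept more of their level. Pcna, the sliding clamp, was at 238 CPM at early anagen and 104 in the bulb (−1.20, −1.24 to −1.15). Of the loader subunits, Rfc2 was at 78.3 and 51.3 CPM (−0.61) and Rfc5 at 37.9 and 17.0 (−1.16), whereas Rfc4 was at 60.0 and 10.7 (−2.49) and Rfc3 at 33.8 and 10.5 (−1.69). The loader subunits thus differed in how far they were lower.

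The 3 subunits of replication protein A, which coats single-stranded DNA in replication and in repair, differed in direction. Rpa1, the large subunit, was at 30.2 CPM at early anagen and 52.3 in the bulb, higher by a log2 ratio of 0.79 (0.71 to 0.87). Rpa2 was at 59.8 and 16.8 CPM (−1.83) and Rpa3 at 67.3 and 24.9 (−1.44).

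In lagging-strand processing, Fen1, the nuclease that trims primer flaps, was at 43.4 CPM at early anagen and 27.2 in the bulb (−0.68), and Lig1, which seals the strand, at 79.4 and 8.39 (−3.24). Ung, which removes uracil from DNA, was at 20.1 and 6.32 (−1.67). The nucleotide enzymes lay close together. Rrm1 and Rrm2, the subunits of ribonucleotide reductase, had log2 ratios of −1.57 and −1.73, Tyms, which makes thymidylate, of −1.73, and Dut, which clears dUTP, of −2.23.

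Among the proteins that guard the fork, Clspn, the checkpoint adaptor claspin, was at 32.1 CPM at early anagen and 1.49 in the bulb, with the lowest ratio of the 39 genes (−4.43, −4.77 to −4.12). Timeless was at 14.0 and 1.59 (−3.13) and its partner Tipin at 82.2 and 29.1 (−1.50), so that these partners differed in how far they were lower. Hells, a chromatin remodeller, was at 64.3 and 3.28 CPM (−4.30), and E2f1, a transcription factor of S-phase entry, at 34.2 and 7.95 (−2.10).

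**Figure D2:**
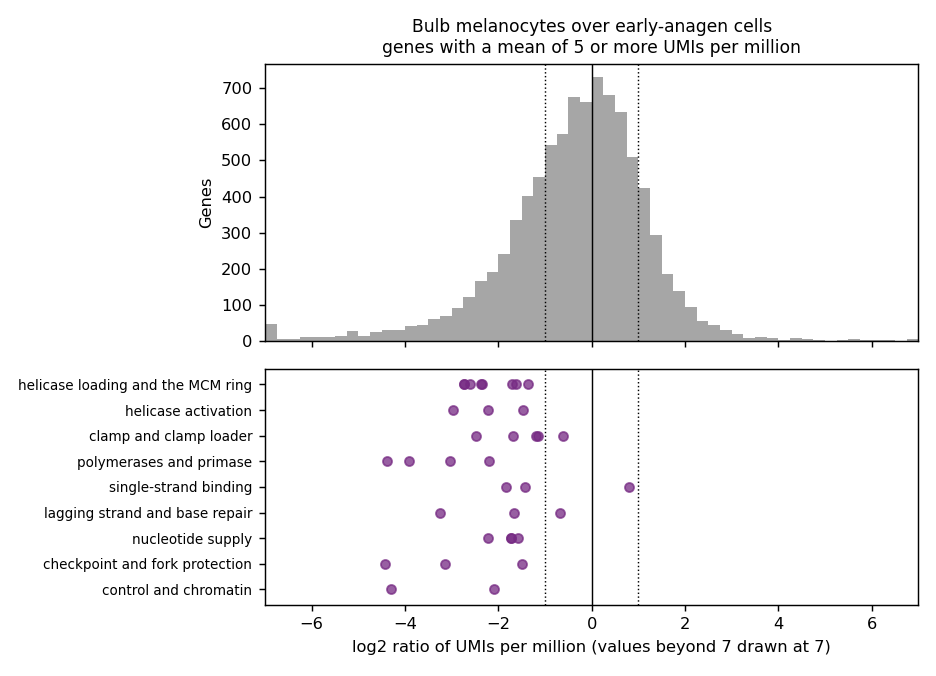
Upper panel, number of genes with a mean of at least 5 CPM by the log2 of their level in bulb melanocytes relative to early-anagen McSCs, for genes with a UMI in both. Lower panel, the 35 members above this minimum by role, 1 point a gene. Dotted lines mark 2-fold. The members lie left of the bulk of genes, with Pola1, Clspn and Hells below −4 and Rpa1 right of 0.

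Promoter sequence was looked at because E2F factors are known to control many of these genes. RefSeq windows of 250 bases before to 50 after a start site (GRCm38.p6) were at hand for 33 of the 39 genes. The other members are Rfc2, Mcm4, Gins2, Tipin, Gins1 and Pole. The E2F motif was searched on both strands as TTTCCCGC, TTTCGCGC, TTTGCCGC and TTTGGCGC. It stood in a window of 14 of the 33 genes (42.4%, 25.5% to 60.8%) and of 2.6% of all 27025 genes. The 14 were Mcm3, Mcm5, Mcm6, Mcm7, Cdc6, Cdt1, Orc1, Gins3, Rfc3, Pola1, Pold1, Lig1, Clspn and Hells. Counting only bases before the start, it stood in 9 of 33 genes (27.3%) and 2.16% of all genes. CCAAT was in 20 of 33 genes (60.6%) and 41.1% of all genes, and TTTGAA or TTCGAA, the core of the CHR element of genes of the later cell cycle, in 6 of 33 (18.2%) and 21.7%. A match is a string of letters and no sign of binding.

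The stretches below show where the motif lay upstream of 5 members that act in helicase loading, DNA synthesis or chromatin, each printed 5′ to 3′ on the strand of its gene, with 20 bases on either side where the upstream window allows and the motif in capitals.
Mcm6 (chr1:128359725-128359835, minus strand): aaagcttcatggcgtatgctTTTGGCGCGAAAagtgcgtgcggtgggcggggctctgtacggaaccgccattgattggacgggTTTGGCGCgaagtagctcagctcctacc
Mcm5 (chr8:75109336-75109387, plus strand): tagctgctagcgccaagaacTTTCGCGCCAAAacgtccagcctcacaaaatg
Cdc6 (chr11:98907993-98908040, plus strand): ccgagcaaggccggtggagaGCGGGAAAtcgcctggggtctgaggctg
Pola1 (chrX:93632266-93632313, minus strand): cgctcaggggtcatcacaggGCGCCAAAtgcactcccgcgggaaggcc
Hells (chr19:38930908-38930955, plus strand): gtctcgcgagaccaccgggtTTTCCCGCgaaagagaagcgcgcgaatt
Mcm6 held 3 matches and Mcm5 held 2, and in both genes 2 matches on opposite strands overlapped. In Cdc6 and Pola1 the motif reads in reverse. Between bulb and early anagen, the median log2 ratio was −2.49 for the 14 genes with a match, with Gins3 highest at −0.80, and −1.73 for the 19 genes without, among them Rpa1. Mcm10, at −3.14, was the lowest of those without a match, so the ranges overlapped widely.

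A level summed over cells does not say how many cells carry it. Each cell was therefore thinned at random to 5000 UMIs, and a cell was counted as in replication when its 39 genes summed to at least 10 UMIs. This is a range of a continuous sum and not a cell type. At early anagen 862 of 2785 cells were in replication (31.0%, 29.2% to 32.7%), and in the bulb 124 of 3734 (3.32%, 2.77% to 3.95%). Cells near the threshold, with 8 to 11 UMIs, numbered 204 and 66. With a threshold of 5 UMIs the shares were 48.3% and 13.4%, and with 20 UMIs 16.6% and 1.69%. The share was higher at early anagen at each threshold.

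The distributions differed in shape as well. The early-anagen sum had a median of 4 UMIs, with the middle range from 2 to 13, and a long shoulder up to 52. The bulb sum had a median of 2 UMIs, a middle range from 1 to 3, and 95% of cells at or below 7, yet its highest cell reached 56. No member UMI was drawn in 5.96% of early-anagen and 11.2% of bulb cells. Of all UMIs of the 39 genes, 75.5% came from cells in replication at early anagen and 24.9% in the bulb. Before thinning, cells in replication held a median of 35757 UMIs against 21315 in the other early-anagen cells, and 19318.5 against 14141.5 in the bulb.

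**Figure D3:**
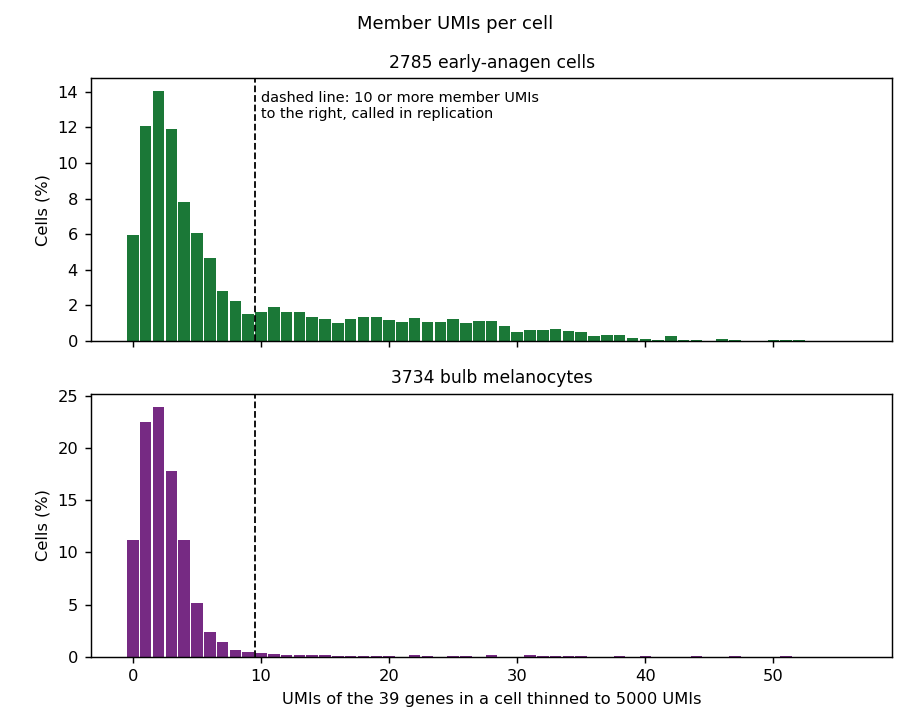
Share of cells (%) by the number of UMIs of the 39 genes in a cell thinned to 5000 UMIs, for early-anagen McSCs (upper) and bulb melanocytes (lower). Cells right of the dashed line, with at least 10 UMIs, were counted as in replication, 31.0% and 3.32% of cells.

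Some of these RNAs differed between the few bulb cells over the threshold and the early-anagen ones. The median of cells over it was 20 UMIs in both libraries, and the summed level was 4552 CPM in the bulb and 4306 at early anagen (log2 ratio 0.08, 0.02 to 0.14). Both groups were chosen by this sum, so that its likeness is set by the threshold and only the make-up can be compared. Of the 39 genes, 5 were at least 2-fold lower in the bulb cells in replication and 3 at least 2-fold higher, where all genes gave 24.4% and 16.2%. The members passed 2-fold less often than all genes, in both directions. The choice of cells by their sum limits how far members can differ, so the share over all genes is not an equal background. Pola1 was at 22.6 CPM against 87.2 (−1.95, −2.83 to −1.19) and Hells at 48.4 against 138 (−1.51). Rpa1 was at 145 CPM against 49.4 (1.55, 1.18 to 1.92), Fen1 at 177 against 84.2 (1.07) and Rrm2 at 377 against 188 (1.01). Histone RNA, which the choice did not use, was far lower in the bulb cells, at 123 CPM (96.6 to 153) against 2544 (2496 to 2592) over the 52 replication-dependent histone genes. At 5000 UMIs, 296 of the 862 early-anagen cells had at least 10 histone UMIs (34.3%), and 0 of the 124 bulb cells. With 3 cells taken as the limit of a count of 0, this allows a share of up to 2.42%. Mitotic genes passed their threshold in 47.1% and 33.9% of these cells. In replication is thus the name of a range of the members' sum, and DNA synthesis itself was not measured.

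The bulb cells in replication held melanocyte markers. All 8 melanocyte markers had UMIs and summed to 55065 CPM, against 67392 in the other bulb cells, and Dct was at 12165 against 15889 CPM. The 8 epidermal markers summed to 62.9 against 41.8 CPM, with Krt15 and Krt1 at 0 in both, and the 6 fibroblast markers to 17.7 against 0.61, mostly Dcn. Hair matrix and shaft markers were lower in the cells in replication, at 4.84 against 11.6 CPM, as were immune markers, at 4.84 against 7.42. Endothelial and Schwann markers had no UMI in them. In so few cells such small sums rest on few UMIs. The choice of cells by Dct, Krt10 and Krt14 fixed part of these values. The part of these transcripts in the result was not tested.

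Each gene was also compared between cells called by the other 38 genes alone. At early anagen all 39 were at least 2-fold higher in the cells so called, by log2 ratios from 1.59 for Rpa3 to 4.77 for Cdc6. Between cells called by all 39 genes and the others, 5.31% of all genes above the minimum were at least 2-fold higher and 45% were higher at early anagen, and 7.56% and 49.5% in the bulb. Clspn was at 72.8 against 2.91 CPM (4.65), Rrm2 at 186 against 7.87 (4.56), Cdc45 at 33.0 against 1.87 (4.14) and Hells at 136 against 8.79 (3.95). Rfc2, at 131 against 42.0 CPM (1.64), and Rpa1, at 47.9 against 13.9 (1.79), were among the weakest. In the bulb all 39 were also at least 2-fold higher, some by more than at early anagen. Mcm5 was at 151 against 3.54 CPM (5.41, 4.94 to 5.90), Prim1 at 74.2 against 1.88 (5.30) and Lig1 at 120 against 3.71 (5.01), while Rpa1 had the lowest ratio, at 136 against 48.0 (1.5, 1.16 to 1.83).

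Across the 2785 early-anagen cells, thinned to 10000 UMIs, Spearman's rho of a gene with the sum of the other 38 was 0.669 for Mcm3 and Dut and 0.625 for Mcm5. It was 0.141 for Gins3 and 0.159 for Orc1, which had a UMI in few cells. The cells share 1 library and these values are a description.

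What remained outside replication was measured in the cells under 10 member UMIs. There the 39 genes summed to 627 CPM in 1923 early-anagen cells and 472 CPM in 3610 bulb cells (log2 ratio −0.41, −0.46 to −0.36). The threshold on the same genes limits how far these sums, and the counts of genes past 2-fold, can differ. Of 26 genes above the minimum level, 8 were at least 2-fold lower in the bulb, where all genes gave 26.4%. Among these 26 the number past 2-fold was thus near the background. Pola1 and Prim1 were so low in the bulb that the minimum itself fixed their 2-fold difference. Over all 39 members, 16 were at least 2-fold lower, and the share over all genes without the minimum was not computed. The 13 under the minimum had low levels and mostly few UMIs. Hells among them had 65 UMIs at early anagen and 21 in the bulb (−2.54, −3.32 to −1.81). Clspn was the lowest of them (−4.61, −7.73 to −2.61), from 26 and 2 UMIs. Rpa1 alone was at least 2-fold higher, where all genes gave 16.1%. The genes were not uniform. Pola1 was at 18.6 CPM at early anagen and 1.55 in the bulb (−3.59, −4.22 to −3.0), Prim1 at 9.36 and 1.88 (−2.31), Mcm5 at 14.0 and 3.43 (−2.03) and Lig1 at 13.7 and 3.60 (−1.93).

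Other genes differed less or were higher in the bulb. Mcm2 was at 11.3 and 11.9 CPM (0.06, −0.27 to 0.41) and Pcna at 88.7 and 82.5 (−0.10, −0.23 to 0.02). Rfc2 was at 38.5 and 44.6 (0.21, 0.03 to 0.39), Fen1 at 13.2 and 19.8 (0.58, 0.29 to 0.89) and Rpa1 at 13.1 and 47.5 (1.86, 1.59 to 2.14). The intervals of Rfc2, Fen1 and Rpa1 lay above 0, and those of Mcm2 and Pcna held 0. In 1458 early-anagen and 3317 bulb cells without a UMI of 20 mitotic genes, a choice that did not use the members, the sums were 862 and 512 CPM (−0.75, −0.80 to −0.70). Of these early-anagen cells 170 were in replication, and of these bulb cells 51. Here 15 of 29 genes were at least 2-fold lower, where all genes gave 26.5%. Among the 15, Pola1, Prim1 and Hells were at 1.75, 2.77 and 1.63 CPM in the bulb. These levels were so low that the minimum itself fixed their 2-fold difference. The members under the minimum here were Cdc6, Orc1, Mcm10, Gins1, Gins3, Cdc45, Pold1, Pole, Timeless and Clspn.

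The order of the genes within S phase was examined at early anagen with genes outside the list, in cells thinned to 10000 UMIs, where a cell in replication had at least 20 member UMIs. Replication-dependent histones are made while DNA is copied, and mitotic genes are highest near division. In total 317 cells had at least 20 histone UMIs (histone-high), and 297 of them were in replication (93.7%, 90.4% to 96.1%). A further 313 cells had at least 10 UMIs of the mitotic genes without the histones (mitotic-high), and 95 of them were in replication (30.4%, 25.3% to 35.8%). Of the remaining 2155 cells, 458 were in replication (21.3%). Almost all histone-high cells, 309, also passed the mitotic threshold. No bulb cell was histone-high, so this comparison was made at early anagen only.

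Histone-high cells held more of nearly every member. Of 38 genes above the minimum, 36 were at least 2-fold higher in them than in the other 2468 early-anagen cells, where all genes gave 5.84%, and the median log2 ratio was 1.68. Rrm2 was highest, at 3.20, and Clspn next, at 2.78. The exceptions were Ung, at 16.4 against 17.2 CPM (−0.07, −0.51 to 0.35), and Gins2, at 53.9 against 35 (0.62).

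**Figure D4:**
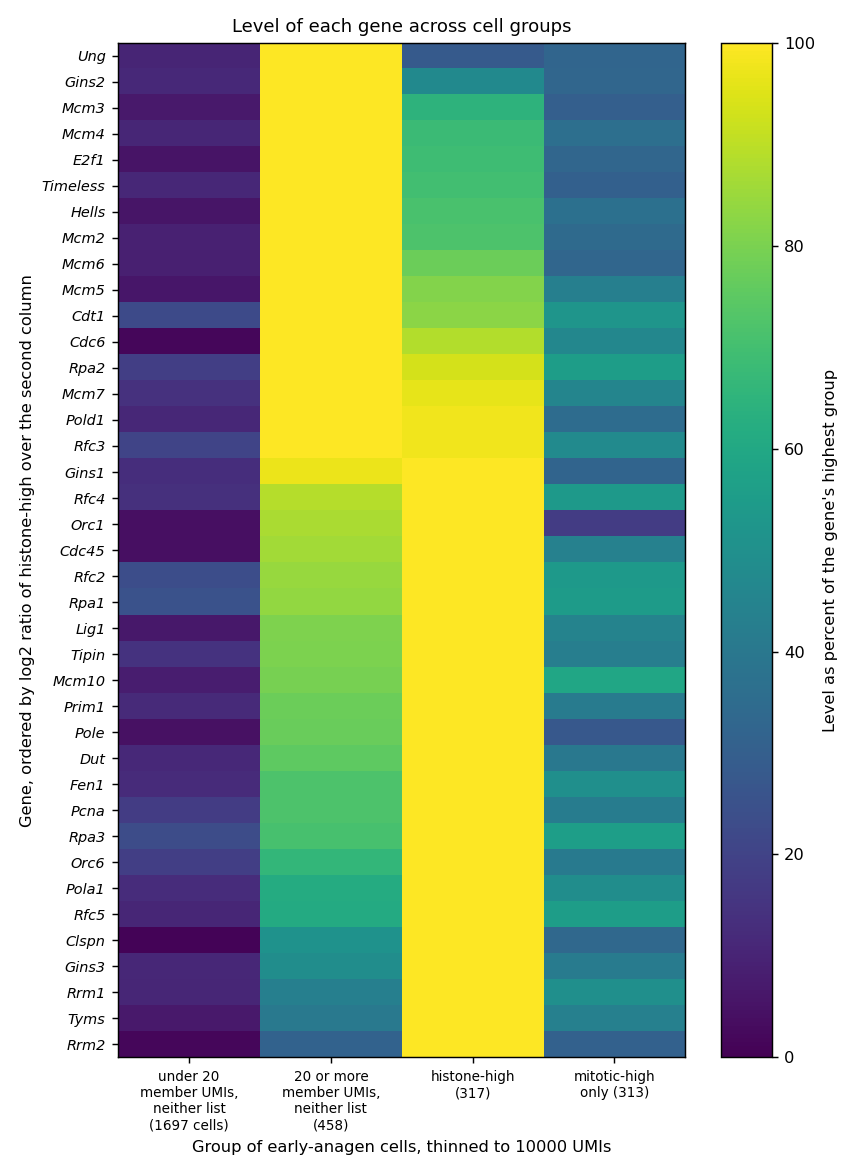
Level of each gene, as a percentage of its highest value among 4 groups of early-anagen McSCs thinned to 10000 UMIs. Groups were formed by histone UMIs and mitotic UMIs, and the remaining cells were split at 20 member UMIs. Ung, Gins2 and Mcm3, at the top, are highest in the cells in replication with neither gene set, and Rrm2, Tyms and Rrm1, at the bottom, in histone-high cells.

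Compared with the 458 cells in replication without either gene set, which were chosen by the sum of the members, histone-high cells had a sum of 4662 against 3925 CPM but a different make-up. Ung was lower in histone-high cells, at 16.4 against 57.6 CPM (log2 ratio −1.81, −2.27 to −1.38), as was Gins2, at 53.9 against 114 (−1.08). These 2 of 39 genes were at least 2-fold lower, where all genes gave 1.1%. Mcm3 (−0.63), Mcm4 (−0.55), E2f1 (−0.54), Timeless (−0.52) and Hells (−0.49) were lower by less, with intervals below 0.

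At the other end, 4 of 39 genes were at least 2-fold higher in histone-high cells, where all genes gave 3.68%. Rrm2 was at 294 against 93 CPM (1.66, 1.49 to 1.83), Tyms at 312 against 126 (1.31), Rrm1 at 211 against 91.0 (1.21) and Gins3 at 10.7 against 5.24 (1.03, 0.24 to 1.85). Of these, Rrm2, Tyms and Rrm1 act in the supply of deoxynucleotides. Clspn (0.97), Rfc5 (0.71), Pola1 (0.70) and Orc6 (0.59) were higher by less. In all, 23 genes were highest in histone-high cells and 16 in the other cells in replication, among them all 6 subunits of the Mcm ring. Of all genes, 46.5% were higher in histone-high cells than in the other cells in replication. The members' sum chose the latter cells, which raises members there, so this share is not an equal background. As 309 histone-high cells were also mitotic-high, the contrast is not one of histones alone. The interval of the ratio between these groups lay above 0 for 16 genes and below 0 for 10, and it held 0 for 13, Mcm7 among them (−0.24 to 0.13).

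Mitotic-high cells had lower levels again. Their sum was 2130 CPM, between histone-high cells and the 1697 cells of the remaining group that were under 20 member UMIs, at 588 CPM. Of 38 genes, 24 were at least 2-fold lower than in histone-high cells, where all genes gave 2.91%. Pole was at 9.27 against 33.8 CPM and Rrm2 at 91.1 against 294. Of the 38 genes 37 were lower by any amount, where 44.8% of all genes were. Ung was the one not lower, at 18.8 against 16.4 CPM (0.20, −0.36 to 0.77). Median depth before thinning was 42899 UMIs in histone-high, 33560 in mitotic-high, 32082 in the remaining cells in replication and 20227 in cells under the threshold.

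Oca2 encodes a melanosome membrane protein needed for pigment, and the members were compared between cells with and without its transcript after thinning to 10000 UMIs. At early anagen 52 of 316 Oca2+ cells were in replication (16.5%, 12.5% to 21%), and 798 of 2469 Oca2- cells (32.3%, 30.5% to 34.2%). The share was 21.6% in cells with 1 Oca2 UMI, 11.8% with 2 to 3 and 9.62% with 4 or more (5 of 52 cells, 3.2% to 21%). The intervals of all 3 classes with Oca2 overlapped (15.5% to 28.7% with 1 UMI and 6.23% to 19.6% with 2 to 3), so no order among them was resolved. Of the 316 Oca2+ cells 162 had a single UMI. In 68 early-anagen barcodes with at least 100 Krt10 and Krt14 UMIs, a limit set after the data were seen, 0 had an Oca2 UMI, which allows up to 5.28%. Their median depth was 40962 UMIs, and their median of melanocyte marker UMIs was 1. Of the 677 barcodes with at least 3 Krt10 and Krt14 UMIs, 95 had an Oca2 UMI (14.0%, 11.5% to 16.9%). Those 677 held a median of 227 melanocyte marker UMIs. A single UMI was seen in 5.82% of the 2785 cells.

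The 39 genes together were at 1130 CPM in the Oca2+ and 1856 CPM in the Oca2- group (log2 ratio −0.72, −0.77 to −0.67). When Oca2 was called from all UMIs of a cell, which lets deeper cells pass more often, the ratio was −0.47. All 35 genes above the minimum were lower in Oca2+ cells, where 46.9% of all genes were lower, and 7 were at least 2-fold lower, where all genes gave 2.06%. These 7 were Mcm4, Mcm6, Rfc3, Cdc45, Pole, Clspn and Hells. Cdc45 was at 5.38 against 12.3 CPM (−1.19, −1.99 to −0.49) and Hells at 24.4 against 53.3 (−1.13). Rpa1 differed least, at 20.6 against 24.1 (−0.23, −0.62 to 0.15).

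Cells on each side of the 20-UMI threshold were also compared, where the threshold on the same genes limits how far the sums can differ. Among cells in replication, Oca2+ and Oca2- cells had 4281 and 4332 CPM of the 39 genes, a log2 ratio of −0.02 (−0.08 to 0.04). In cells under 20 member UMIs the levels were 509 and 673 CPM (−0.40, −0.49 to −0.32). Mitotic-high cells, whether or not histone-high, made up 12.3% of Oca2+ and 23.6% of Oca2- cells. The Oca2+ cells were somewhat deeper before thinning, with a median of 27591 against 24070 UMIs.

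The bulb was compared at 5000 UMIs, where 86.8% of cells had an Oca2 UMI. Of 494 cells without one, 40 were in replication (8.1%, 5.85% to 10.9%), against 84 of 3240 with at least 1 (2.59%, 2.07% to 3.2%), and 15 of 1157 with 4 or more (1.3%, 0.727% to 2.13%). The members summed to 569 CPM with Oca2 and 858 without (−0.59, −0.66 to −0.53). All 27 genes above the minimum were lower in Oca2+ cells, where 53.6% of all genes were, and 8 were at least 2-fold lower, where all genes gave 1.94%. Mcm5 was at 7.16 against 16.2 CPM (−1.18) and Prim1 at 3.58 against 8.91 (−1.31), whereas Rpa1 was at 50.6 against 51.8 (−0.03, −0.30 to 0.25). Oca2 itself was at 323 CPM in the bulb cells in replication and 551 in the others at 5000 UMIs. At early anagen, at 10000 UMIs, it was at 10.2 (8.2 to 12.6) and 30.9 CPM. Bulb cells in replication thus held more Oca2 RNA than early-anagen cells of either kind. A lower level in cells in replication was not particular to Oca2, though Oca2 differed more than Dct or the sum of the pigmentation genes. At early anagen Dct was at 6031 against 9263 CPM and the pigmentation genes summed to 20908 against 29566. In the bulb the pigmentation genes summed to 66087 against 81012 CPM.

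**Figure D5:**
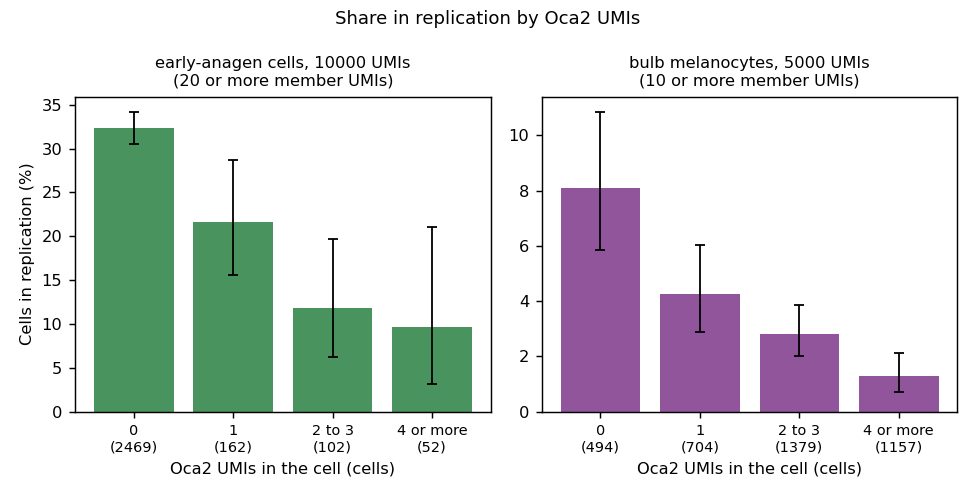
Share of cells in replication (%) by the number of Oca2 UMIs in the cell, for early-anagen McSCs at 10000 UMIs (left) and bulb melanocytes at 5000 UMIs (right), with exact 95% binomial intervals and the number of cells in brackets. The scales differ. The share goes from 32.3% to 9.62% at early anagen and from 8.1% to 1.3% in the bulb.

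Other genes of S phase were taken from fixed lists. Of 25 further replication factors above the minimum, 13 were at least 2-fold lower in the bulb, with a median log2 ratio of −1.19. For this and the lists that follow, the share over all genes above the minimum was 27.9% at least 2-fold lower and 55.7% lower. Dscc1 (−3.28), of an alternative clamp loader, and Topbp1 (−3.18), which acts in origin firing, were lowest, and Pole4 (0.88) and Orc5 (0.68) were higher. Of 12 genes that assemble chromatin at the fork, 10 were at least 2-fold lower and 1 at least 2-fold higher, where all genes gave 15.4% (median −2.18). Uhrf1 (−3.94) and Dnmt1 (−3.44), which copy DNA methylation, were lowest, and the histone chaperone Asf1a was higher, at 1.19. Slbp, which binds histone RNA, was at −0.58.

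The 12 further nucleotide enzymes were all lower, 7 of them at least 2-fold (median −1.44), from Shmt1 (−3.71) and Tk1 (−2.97) to Mthfd1 (−0.61) and Nme1 (−0.23). Of 14 genes of E2F and S-phase cyclin control, 10 were at least 2-fold lower (median −1.90). The checkpoint kinase Chek1 (−4.76) and the cyclin Ccna2 (−3.89) were lowest, whereas E2f5 (1.68) and E2f4 (0.55), E2F factors linked to repression in resting cells, were higher. All 20 mitotic genes were at least 2-fold lower, with a median of −3.37, from Mki67 (−5.65) and Kif11 (−5.22) to Ccnb1 (−2.36) and Aurka (−1.52). Of 52 replication-dependent histone genes 16 passed the minimum, which they did through early anagen alone, and all 16 were at least 2-fold lower. Passing through that side alone favours a lower level in the bulb. Over all 52 genes, 47 were at least 2-fold lower, with a median of −4.66 when a count of 0 is set to 3. The share over all genes covers only genes above the minimum, so it is no background for this count of 47. Histone RNA mostly lacks the poly(A) tail that the kits capture. The median of the 35 members, at −2.10, lay between those of the further replication factors and of the mitotic genes.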

How the data were processed

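For each library, the file deposited by the authors gives whole-number UMI counts, not normalized. The submitters' processing notes name Cell Ranger 6.0.1 and mm10. The 3′ counts were not scaled by gene length. Per group, UMIs were summed over cells and scaled to CPM. Ratios carry the exact conditional 95% interval of 2 Poisson sums and shares the Clopper-Pearson interval. Genes with a mean of at least 5 CPM over the groups compared entered counts of genes past 2-fold. Cells were thinned without replacement (seed 19) to 5000 or 10000 UMIs. All 39 members are named by role, and of each other list the 2 lowest and 2 highest genes. The members and lists were chosen with earlier results of these data known. Promoters came from RefSeq. For 30 of 33 members, bases after the start matched a GENCODE M21 transcript of the gene. The ratio and interval code was tested on simulated data. Python 3.11.15, scipy 1.17.1 and edgeR 4.0.16 (TMM factors) were used.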

Additional observations from a re-analysis of the deposited data

Results flagged for a closer look

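Barcodes with 3 or more UMIs of Krt10 and Krt14 entered no comparison of the members above. Of 677 such early-anagen barcodes passing the other quality limits, 378 had at least 10 UMIs of the 39 genes at 5000 UMIs (55.8%, 52.0% to 59.6%), and 216 lay near the threshold, with 8 to 11 UMIs. Of 29 such bulb barcodes, 3 did (10.3%, 2.19% to 27.4%). Both shares were singled out because their intervals lay above 0, which any barcode over the threshold is enough to bring about. The early-anagen barcodes had a median sum of 10 UMIs, against 4 in the cells analysed, but those over the threshold had a median of 13, against 20. Of the 677 early-anagen barcodes, 653 held a Dct UMI. At 10000 UMIs the 677 had a median of 227 UMIs of the melanocyte markers, against 241 in the cells analysed. Most thus carried melanocyte RNA beside the keratins, and whether they mix cells was not tested.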

How the results depend on the processing

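The count of members at least 2-fold lower in the bulb was 24 of 27 to 35 of 39 over 12 alternatives. With a minimum mean of 20 CPM it was 24 of 27, where all genes gave 23.1%. With all genes that had a UMI in both groups it was 35 of 39, where all genes gave 35.6%, so the background rose as well. The count at least 2-fold higher in histone-high cells was 36 of 38 in all 3 alternatives, for which the share over all genes was not computed. The log2 ratio of the summed members, bulb over early anagen, was −1.72 above 10000 UMIs in both libraries and −1.72 without any Krt10 or Krt14 UMI. It was −1.71 with up to 10% mitochondrial UMIs, −1.54 thinned to 5000 UMIs, −1.53 as a mean of each cell's CPM, −1.44 with TMM factors and −1.91 with the reduced total. Thinning and the mean per cell give every cell equal weight. The early-anagen share in replication was 28.3% without keratin UMIs, 28.7% without the 5% of cells with the most UMIs, 48.3% at 5 UMIs and 16.6% at 20 UMIs. The bulb share was 2.76% without the 5% deepest cells, 13.4% at 5 UMIs and 1.69% at 20 UMIs. The Oca2+ over Oca2- ratio was −0.95 with at least 2 Oca2 UMIs, −0.47 with Oca2 called from all UMIs and −0.64 without keratin UMIs. The Oca2+ share was 11% and 21.1% in the first 2 of these, 24.4% at 10 member UMIs and 8.54% at 40. The Oca2- share was 30.0% without the 5% deepest cells, 29.4% without keratin UMIs, 46.6% at 10 and 17.7% at 40. Where not stated, the cause of a move was not tested. No value changed direction. No paired analysis was possible because each state had 1 library, and no library could be left out.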
